A study of Hydra vulgaris with 2 samples.

Results

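Transfer RNAs (tRNAs) of *Hydra vulgaris* extracellular vesicles (EVs) are described here by amino acid and anticodon. They are the listed tRNA targets that reached 0.4 TPM (transcript level per effective length, scaled to the same total in each library) in at least 1 of 2 EV libraries, which held for 253 of 395 tRNA targets, among 25314 targets in all. The targets are copies, listed as a name with a copy number, and joining the copies gave 31 names with a member among 47 listed. A name such as trnad-guc gives the amino acid (d, aspartate) and the anticodon, and is written tRNA-Asp-GUC below. Of the 31 names, 29 belong to nuclear genes and 2, trnM and trnW, to the mitochondrion. The targets were 69 to 86 bases long with a median of 73, the size of tRNAs.

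Both libraries hold total RNA of EVs collected from the medium of intact polyps of the strain Zurich, which had been kept at 250 polyps per dish and starved for 4 days. The vesicles had been digested with proteinase K and then with RNase A before the RNA was extracted. The libraries were treated as 2 replicates of 1 condition. Their titles differ only in a number, and library A is the one titled with 5000Hy and library B the one with the larger number. The labels do not say what the number means, so a difference in preparation cannot be told apart from the spread between replicates wherever A and B are compared below. RNA of whole polyps was not analysed here, so no enrichment over the animal can be given, and more vesicles cannot be told apart from more RNA per vesicle.

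A tRNA carries an amino acid to the ribosome and reads the codon through its anticodon, whose first base pairs loosely with the third base of the codon. Nuclear tRNA genes occur in many copies, often of identical sequence, and are transcribed by RNA polymerase III. In animals tRNAs are also cleaved within the anticodon loop or near their ends, and in mammals such fragments, prominently of glycine and glutamate tRNAs, are known from vesicles and body fluids. The authors removed reads that were short after trimming, so the shortest fragments are not among the counted reads. The deposited values do not say which part of a tRNA a read covered, so whole tRNAs and longer fragments are not told apart below.

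Library A and library B differed in depth, with 5943550 estimated counts in library A against 3943873 in library B, of which the 5 most abundant targets took 97.0% and 98.7%. Of what remained, 176028 and 51977 counts, tRNA targets took 414 counts in library A against 402 in library B. That is 0.00697% of library A (95% Wilson interval 0.00633 to 0.00767) and 0.0102% of library B (0.00924 to 0.0112). Outside the 5 most abundant targets it is 0.235% (0.214 to 0.259) and 0.773% (0.702 to 0.852). These and all later intervals cover counting error only and treat each read as independent. The described processing names no removal of copied reads by molecular identifiers, so the intervals may be too narrow. Nothing says whether the libraries came from separate cultures beyond the description as biological replicates, and no test between groups could be made.

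Few reads stood behind the TPM of tRNAs, which is set per effective length. The median effective length, the number of positions at which a fragment could start, was 19.6 bases in library A against 19.2 in library B, against 1029 and 1027 bases for mRNA targets. A single count on a tRNA of this length gave 7.29 TPM in library A against 11.8 TPM in library B, against 0.139 and 0.221 TPM on an mRNA of median length. Joined by name, tRNA-Asp-GUC therefore ranked 9 among all features by mean TPM but 67 by mean estimated count, and tRNA-Glu-UUC 10 and 92. The threshold of 0.4 TPM stood for 0.0549 counts in library A against 0.0338 in library B, so a single read shared by many copies lifted them all above it.

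The members just inside the threshold were the 11 copies of tRNA-Ile-AAU that shared 1 read in library A, at 0.0909 counts and 0.644 TPM each. No tRNA target lay just outside it, as the other 142 were listed at 0 in both libraries. Members were thus all tRNA targets with any assigned read. They were 64.1% of the tRNA targets, where 25.3% of all targets reached the threshold, a share that the rule itself fixes. Among the members 167 reached it in both libraries, 63 in library A alone and 23 in library B alone. The 167 are 66.0% of the members, where 16.8% of all targets above the threshold reached it in both. These shares do not rest on one depth. On an mRNA of median length 0.4 TPM stood for 2.88 counts in library A against 1.81 in library B, and tRNA copies that share a read pass together. They therefore do not compare how well tRNAs and other targets repeat between the libraries.

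Copies of a name mostly carried equal values, so single copies could not be distinguished. The 253 members fell into 37 sets of copies with equal counts in both libraries, and the largest set was that of the 22 copies of tRNA-Asp-GUC. Members of 26 names formed a single set. In the sets of 2 or more copies stood 242 members, and 153 members (60.5%) had under 1 estimated count in each library. The remaining 29 copies of the names with reads were at 0, among them the single 86-base copy of tRNA-Gly-UCC and 1 of 16 copies of tRNA-Glu-UUC. Whether these copies differ in sequence from the others could not be examined here. Values below are therefore sums over the copies of a name. For 29 of the 31 names the sums were whole within 0.01 counts in both libraries.

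tRNAs for aspartate, glutamate and glycine held most of the nuclear tRNA reads. They took 278 of 379 counts in library A against 317 of 401 in library B, that is 73.4% (68.7 to 77.6) and 79.1% (74.8 to 82.8), while their copies made up 17.8% of the 393 nuclear copies listed. The 8 nuclear names with the highest mean TPM took 85.5% and 90.3% of these counts. At least 3 counts, used here as the floor of a library, were reached by 21 of the 47 names in at least 1 library and by 11 in both. Among all features, with copies joined by name, 27.0% reached 3 counts in at least 1 library, but a tRNA name sums up to 22 copies.

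**Figure D1:**
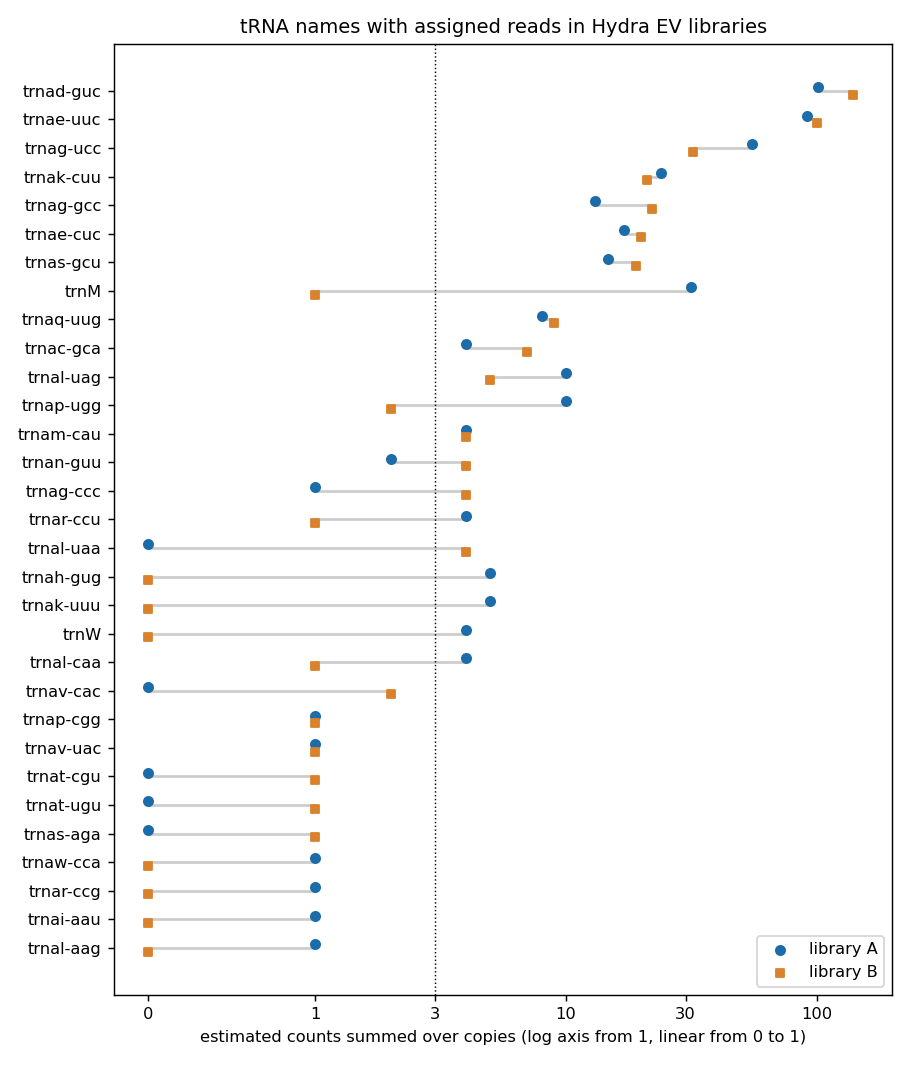
Estimated counts of each of the 31 tRNA names with assigned reads, summed over copies, in library A (circles) and library B (squares), ordered by mean TPM, on an axis that is logarithmic from 1 upwards. The dotted line marks 3 counts. From tRNA-Asp-GUC with 101 and 139 counts the names fall to single reads, and trnM, with 31.5 counts in library A against 1 in library B, has the largest ratio among names with reads in both libraries.

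tRNA-Asp-GUC, the only aspartate tRNA listed, pairs fully with the codon GAC and was the most abundant name. It had 101 counts in library A against 139 in library B. Its level was 760 TPM in library A against 1691 in library B, with a mean of 1225 ± 658 TPM (SD, n = 2). Its share of the nuclear tRNA counts was 26.7% (22.4 to 31.3) and 34.7% (30.2 to 39.4), with a log2 ratio of library A over library B of -0.38 (exact binomial interval -0.76 to 0.0018). All 22 copies carried reads in equal parts.

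tRNA-Glu-UUC, which pairs fully with GAA, followed with 91 counts in library A against 100 in library B, at 685 and 1216 TPM. tRNA-Glu-CUC, which pairs fully with GAG, had 17 and 20 counts at 128 and 243 TPM. The form with UUC took 84.3% of the glutamate tRNA counts in library A (76.2 to 89.9) and 83.3% in library B (75.7 to 88.9), against 69.6% of the listed copies. The split between both glutamate tRNAs thus differed by less than its counting error between the libraries. The level of aspartate and glutamate tRNAs together did not separate in order either, since glutamate had more counts in library A (108 against 101 for aspartate) and aspartate more in library B (139 against 120 for glutamate).

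Glycine tRNAs came next with 69 counts in library A against 58 in library B. tRNA-Gly-UCC had 55 and 32 counts at 414 and 389 TPM. tRNA-Gly-GCC had 13 and 22 counts at 101 and 274 TPM, and tRNA-Gly-CCC, listed with a single copy, 1 and 4 counts at 7.76 and 49.8 TPM. Here the split moved between the libraries. The form with UCC held 79.7% of the glycine tRNA counts in library A (68.8 to 87.5) and 55.2% in library B (42.5 to 67.3), and the intervals did not overlap. Against all nuclear tRNA counts, tRNA-Gly-UCC had a log2 ratio of library A over library B of 0.86 (0.21 to 1.54).

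Lysine and serine tRNAs had lower levels. tRNA-Lys-CUU, which pairs fully with AAG, had 24 counts in library A against 21 in library B, at 175 and 248 TPM. tRNA-Lys-UUU had 5 counts (36.4 TPM) in library A against 0 in library B, although it is listed with 19 copies against 8 for the form with CUU. The form with CUU thus held 82.8% of the lysine tRNA counts in library A (65.5 to 92.4) and 21 of 21 in library B, against 29.6% of the copies. tRNA-Ser-GCU had 14.7 counts in library A against 19 in library B, at 86.2 and 182 TPM. Of the other serine tRNAs, tRNA-Ser-AGA had 1 count in library B and those with UGA and CGA had none.

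Below these names the counts were too few to order neighbours. tRNA-Gln-UUG had 8 counts in library A against 9 in library B (60.2 and 109 TPM), while tRNA-Gln-CUG had none. tRNA-Cys-GCA had 4 and 7 counts (30.1 and 85.1 TPM). tRNA-Leu-UAG, with only 3 copies, had 10 and 5 counts (58.5 and 48.0 TPM). Of the other leucine tRNAs, tRNA-Leu-CAA had 4 and 1 counts (22.6 and 9.30 TPM) and tRNA-Leu-UAA 0 and 4 counts (0 and 37.8 TPM). tRNA-Leu-AAG had 1 count in library A and none in library B. tRNA-Pro-UGG had 10 counts in library A against 2 in library B (75.2 and 24.3 TPM), spread over 21 of its 22 copies. Relative to all nuclear tRNA counts it was the only name besides tRNA-Gly-UCC whose interval of the ratio lay apart from 0 (log2 ratio 2.40, 0.17 to 5.63), among 29 nuclear names and with no correction for their number.

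Nuclear tRNA-Met-CAU, the anticodon of both initiator and elongator methionine tRNAs, had 4 counts in each library (29.2 and 47.3 TPM). They were divided over 8 copies of 72 bases and 9 copies of 74 bases, with 2 counts on each set in each library. Which set is the initiator is not given by the names. tRNA-Asn-GUU had 2 and 4 counts (14.2 and 46.0 TPM), and tRNA-Arg-CCU 4 and 1 (29.1 and 11.8 TPM). tRNA-His-GUG had 5 counts (37.6 TPM) in library A against 0 in library B. The remaining nuclear names were under 3 counts in each library. tRNA-Pro-CGG and tRNA-Val-UAC had 1 count in each library, and tRNA-Val-CAC had 0 in library A against 2 in library B. tRNA-Thr-CGU and tRNA-Thr-UGU had a single count, in library B. tRNA-Trp-CCA, tRNA-Arg-CCG and tRNA-Ile-AAU had a single count, in library A.

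**Figure D2:**
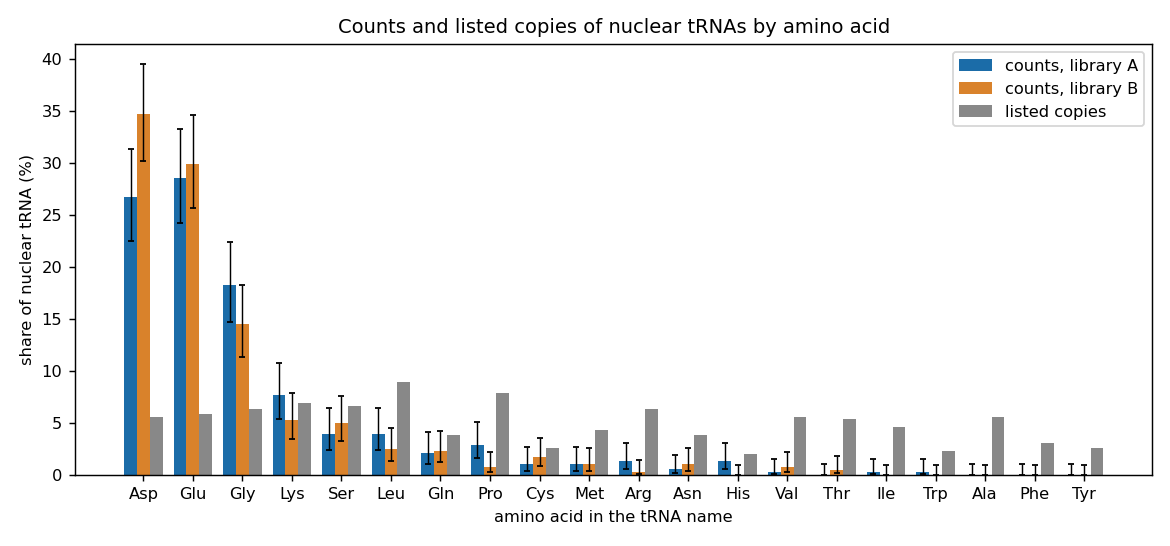
Share of nuclear tRNA counts for each amino acid in library A (blue) and library B (orange) with 95% Wilson intervals, beside the share of the 393 listed nuclear copies (grey), all in percent. Aspartate and glutamate exceed their share of copies most, and alanine, phenylalanine and tyrosine have copies but no counts.

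No read was assigned to 16 names with 113 copies. Nuclear tRNAs of 17 of 20 amino acids had a read in at least 1 library, and those of alanine (tRNA-Ala-AGC, tRNA-Ala-CGC and tRNA-Ala-UGC), phenylalanine (tRNA-Phe-GAA) and tyrosine (tRNA-Tyr-GUA) had none. The other names without a read were tRNA-Ile-UAU, tRNA-Leu-CAG, tRNA-Pro-AGG, tRNA-Gln-CUG, tRNA-Thr-AGU, tRNA-Val-AAC, the arginine tRNAs with ACG, UCG and UCU and the serine tRNAs with CGA and UGA. The floor of 3 counts, which a count of 0 allows, is a share of 0.792% of the nuclear tRNA counts in library A against 0.748% in library B. The upper Wilson bounds of a count of 0, drawn in the plot by amino acid, are 1.003% in library A against 0.949% in library B. The 22 alanine copies are 5.60% of the nuclear copies listed, and the 12 phenylalanine copies 3.05%. These tRNAs were not detectable at this depth, which does not show that they are absent from EVs.

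Grouped by the first base of the anticodon, a grouping chosen after the values were seen, names with A were nearly empty. In animal tRNAs this A is converted to inosine, which lets the tRNA read several codons. Whether this conversion affected the assignment of reads to these names was not tested. The 8 names with A (for Ala, Arg, Ile, Leu, Pro, Ser, Thr and Val) have 72 copies, 18.3% of the nuclear copies, and 5 of them had no read. They held 2 counts in library A against 1 in library B, or 0.528% (0.145 to 1.90) and 0.249% (0.0440 to 1.40) of the nuclear tRNA counts. Names with G held 36.9% (32.2 to 41.9) and 47.6% (42.8 to 52.5) of the counts with 25.2% of the copies. Names with U held 47.5% and 38.4% with 37.7% of the copies, and names with C 15.0% and 13.7% with 18.8%. None of the names with A is for aspartate, glutamate or glycine, so they were also set beside the 20 other names of their own 8 amino acids. Within these amino acids the names with A had 36.0% of the 200 copies and held 2 of 47.7 counts in library A, or 4.19% (1.15 to 14.0), against 1 of 39 in library B, or 2.56% (0.454 to 13.2). The other names held 45.7 counts in library A against 38 in library B, mostly tRNA-Ser-GCU, tRNA-Leu-UAG and tRNA-Pro-UGG.

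**Figure D3:**
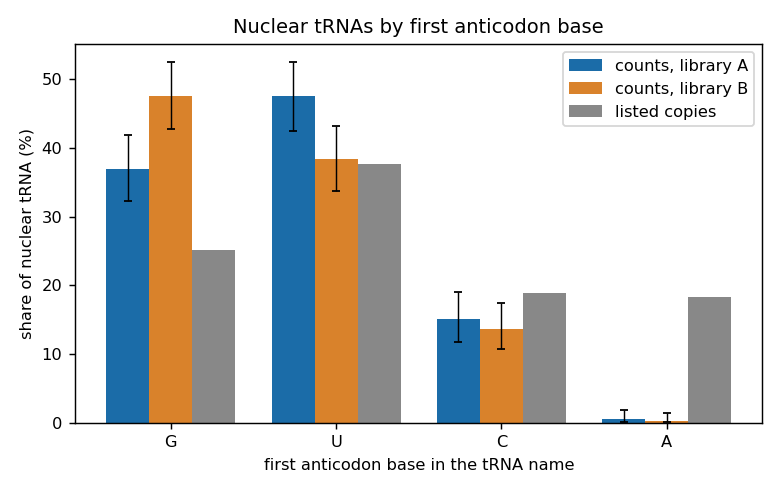
Share of nuclear tRNA counts by the first base of the anticodon in library A (blue) and library B (orange) with 95% Wilson intervals, beside the share of listed copies (grey), all in percent. Names with A have 18.3% of the copies and under 1% of the counts in each library.

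The number of copies listed for a name ordered the counts only loosely. Across the 45 nuclear names the Spearman rho of listed copies and counts was 0.387 in library A against 0.283 in library B. The copies of the same names in the annotation of the assembly HydraT2T_AEP, in which 45 of 45 names were found, gave 0.389 and 0.304. The listed copies and those of that annotation had a rho of 0.958 with each other. These are descriptions across names of the same 2 libraries, and no p-value was computed. tRNA-Pro-UGG has as many listed copies as tRNA-Asp-GUC, 22, but had 10 counts in library A against 2 in library B, against 101 and 139 for tRNA-Asp-GUC. tRNA-Val-AAC, with 13 copies, had none, whereas tRNA-Gly-UCC, also with 13, had 55 and 32.

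**Figure D4:**
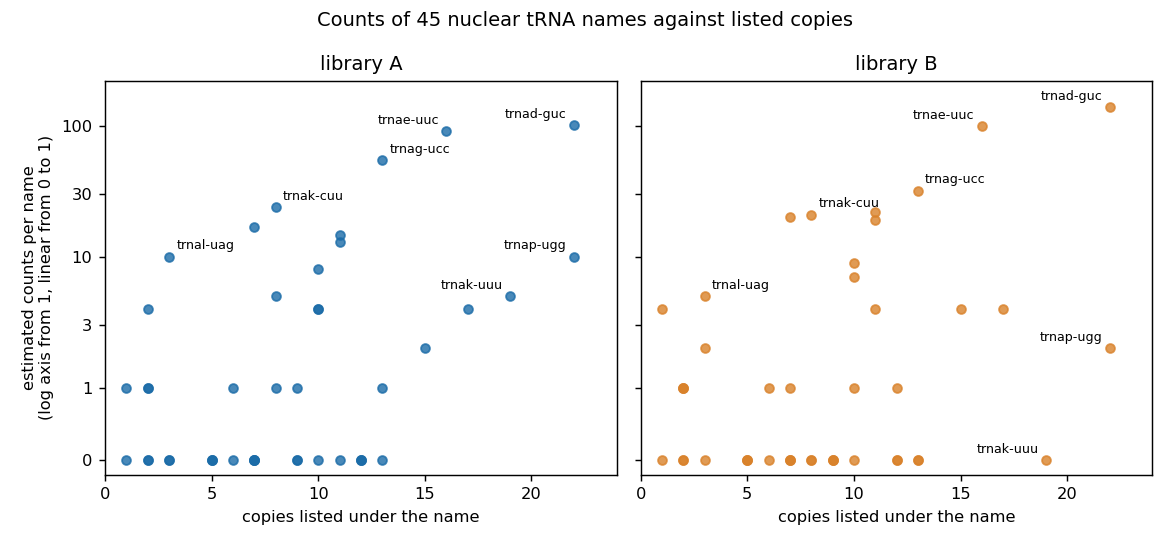
Estimated counts of the 45 nuclear tRNA names against the number of copies listed under the name, in library A (left) and library B (right), on a vertical axis that is logarithmic from 1 upwards. Names with 22 copies lie at 101 and 10 counts in library A and at 139 and 2 counts in library B. Many names with up to 13 copies lie at 0, and in library B so does tRNA-Lys-UUU with 19 copies.

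Across the same 45 names the counts of library A and library B had a Spearman rho of 0.732, and a rho of 0.740 over the 19 nuclear names at 3 or more counts in at least 1 library. Reads were assigned in both libraries to 19 of the 31 names, in library A alone to 7 and in library B alone to 5. Over all 25314 targets, 12878 had counts in library A against 3542 in library B. Of the 21 tRNA names at 3 or more counts in a library, 11 reached this in both. Of all features, with copies joined by name, 732 of 6731 did, but a tRNA name sums up to 22 copies. tRNA-Asp-GUC, tRNA-Glu-UUC and tRNA-Gly-UCC were the first 3 by counts in both.

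In the level relative to all other RNA, nuclear tRNAs ran opposite to the sum of mRNAs. They made up 0.00637% of the counts of library A and 0.0102% of those of library B, a log2 ratio of library A over library B of -0.67 (-0.88 to -0.47). The mRNA targets outside the 5 most abundant made up 2.40% and 0.884%, a log2 ratio of 1.44 (1.42 to 1.46). As a sum, targets listed as non-coding RNA outside the 5 most abundant had a log2 ratio of -0.49 (-0.52 to -0.46), although most single ones ran the other way, as given below. Taken as shares of the counts outside the 5 most abundant targets, the log2 ratio of mRNA shrank to 0.27 (0.26 to 0.29), while that of nuclear tRNA was -1.84 (-2.05 to -1.64) and that of non-coding RNA -1.66 (-1.69 to -1.63). Summed over all tRNAs, TPM was 3069 in library A against 4806 in library B.

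By name, 10 of 13 nuclear tRNAs with a mean of 3 or more counts had a higher TPM in library B than in library A, where 2.62% of all 3925 features past this filter did. Since library A was deeper outside the 5 most abundant targets, features pass such a filter more easily through library A. Among features at 3 or more counts in both libraries the tRNA names were 9 of 11, against a share of 11.7% of all 732 features. The median log2 ratio of TPM + 0.1, library A over library B, was -0.86 for these 11 names and 1.82 for 689 mRNA targets. Of the 13 names with a mean of 3 or more counts, those higher in library A were tRNA-Pro-UGG (1.63), tRNA-Leu-UAG (0.29) and tRNA-Gly-UCC (0.09). When TPM was rescaled without the 5 most abundant targets and lsu-rRNA, tRNA-Leu-UAG turned to -0.07 and tRNA-Gly-UCC to -0.27, and 12 of 13 names were higher in library B, where 4.48% of all 3925 features were. That rescaling moved the median over the 732 features to 1.55, against 1.78 as deposited. Over the 3925 features it moved the median the other way, to 4.35 against 2.53, and 1873 of these were at 0 counts in library B, where the ratio depends on the pseudocount. A difference between 2 replicates of 1 condition has no test, and the share of each library taken by its 5 most abundant targets differed as given above.

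**Figure D5:**
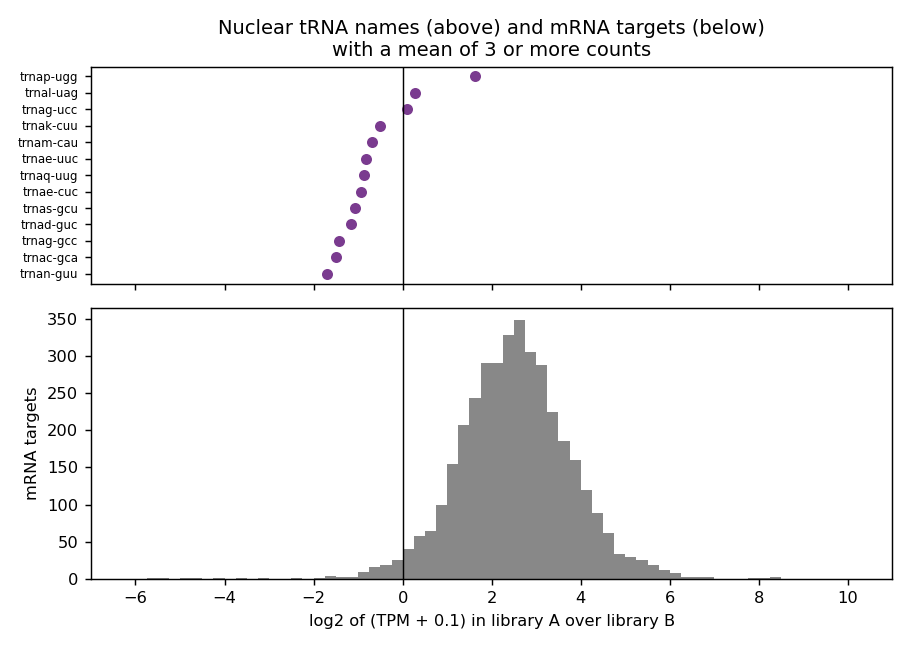
Log2 ratio of TPM + 0.1 in library A over library B, as deposited, for the 13 nuclear tRNA names (points) and 3784 mRNA targets (histogram, number of targets) with a mean of 3 or more counts. Of the tRNA names 10 lie left of 0, where library B is higher, and the bulk of the mRNA targets lies right of it.

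Other short targets did not share the level of tRNAs. The 54 other targets of 69 to 86 bases, leaving out the mitochondrial entry described next, had 12.7 counts in library A against 0 in library B. The 395 tRNA targets had 414 and 402 counts. Reads were assigned to 58.2% of the tRNA targets in library A against 48.1% in library B, against 16.7% and 0% of the other short targets. The tRNA shares count copies one by one, and a single read divided over copies of a name counts for each of them.

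The mitochondrial tRNAs went the other way from most nuclear names. The mitochondrial genome of Hydra encodes only tRNAs for methionine and tryptophan, and both are listed here. trnM (methionine) had 31.5 counts in library A against 1 in library B, at 244 and 12.4 TPM, and trnW (tryptophan) 4 and 0 counts, at 32.8 and 0 TPM. A further mitochondrial entry of 71 bases, the length of trnM, carried exactly the same values as trnM and was not counted as a tRNA since its name is a position. Together both entries had 63 and 2 counts, and whether reads of a single sequence were split between them was not tested. The log2 ratio of their share of all counts was 4.39 (2.47 to 7.46), library A over library B. The 13 protein genes of the mitochondrion had 2125 counts in library A against 15 in library B, a log2 ratio of 6.55 (5.83 to 7.39), and lsu-rRNA 5824 and 159. An entry of 901 bases, also named by a position, had 7178 and 148. The mitochondrial tRNAs thus had fewer counts in library B than in library A, as these other mitochondrial transcripts did.

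Messenger RNAs for tRNA charging and delivery were read at 10 to 948 counts per gene in library A and at 0 to 64 in library B. The list was made by words of the descriptions in the supplementary gene list, of which only the more abundant part was given, and held 14 genes. The words also took in translation elongation factor 2 (LOC100203564), with 403 counts in library A against 21 in library B, and the La protein. Neither charges or delivers tRNAs. All 14 had a higher TPM in library A than in library B, with a median log2 ratio of TPM + 0.1 of 2.81. Of all 3925 features at a mean of 3 or more counts, 97.4% were higher in library A, with a median of 2.53, so the count does not set these genes apart. Genes could enter the list through library A alone, as 9 of the 14 reached 0.4 TPM in both libraries and 5 had under 3 counts in library B. Elongation factor 1-alpha (LOC100206683), which brings charged tRNAs to the ribosome, had 948 counts in library A against 64 in library B, above every tRNA name in library A and below tRNA-Asp-GUC and tRNA-Glu-UUC in library B, but 86.8 and 9.47 TPM. The 3 subunits of initiation factor 2 (LOC100199407, LOC100199030 and LOC100213814), which brings the initiator tRNA, had 24 to 39 counts in library A against 2 to 5 in library B. The La protein (LOC100210886), which binds the ends of new RNA polymerase III transcripts, had 10 and 0.

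Of the charging enzymes, the aspartate tRNA ligase (LOC100205952) had 37 counts in library A against 1 in library B, beside 101 and 139 counts on its tRNA. The lysine ligase (LOC100207310) had 34 and 3 counts, beside 29 and 21 on lysine tRNAs. The histidine ligase (LOC100211845) had 28 and 2 counts, beside 5 and 0, and the asparagine ligase (LOC100200075) 19 and 3, beside 2 and 4. The beta subunit of the phenylalanine ligase (LOC100207925) had 13 and 0 counts, while no read was assigned to tRNA-Phe-GAA. As counts are not per length, these pairs show detection and not relative levels.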

How the data were processed

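EV RNA from 2 libraries of 1 condition was analysed. The authors trimmed the reads with TrimGalore! and removed those that were short after trimming. They quantified the rest with kallisto, whose version is not given in the sources used here, on the NCBI transcripts of Hydra_RP_1.0. The files hold the authors' estimated counts, in which a read that fits several targets is divided among them without any scaling for depth. They also hold the authors' TPM, which divide these by effective length and bring every library to one total.

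tRNA targets were selected at 0.4 TPM in at least 1 library and summed by name. The members and lists were chosen with earlier results of these data known. Every name with a member is named, with full values at 3 counts in at least 1 library. The genes of tRNA charging and delivery were joined to targets by their pair of TPM values, as single targets or sums of up to 6 adjacent ones. Shares have 95% Wilson intervals. Ratios of shares have exact binomial intervals of the split of the rounded counts. The interval code was tested on simulated libraries. Alternatives were other thresholds, count minimums, scalings, sets of names and each library left out. No tRNA sequence was used here. Python 3.11.15, pandas 2.3.3 and scipy 1.17.1 were used.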

Additional observations from a re-analysis of the deposited data

How the results depend on the processing

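The choice of threshold hardly mattered and the count minimum did. The number of tRNA targets was 253 at 0.2 TPM and 233 at 1 TPM. It became 167 when detection in both libraries was required, 100 with at least 1 estimated count of the copy and 62 with at least 3, and was 190 to 230 with a library left out. The 31 names became 19 in both libraries, 19 with at least 1 count of a copy and 9 with at least 3, and were 24 to 26 with a library left out. The 21 names at 3 counts became 11 in both libraries and 10 at a minimum of 10 counts, and were 14 to 18 with a library left out.

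The mean share of tRNAs was 0.00858% of the estimated counts but 0.394% of TPM, and 0.00697% to 0.0102% with a library left out. Their mean share outside the 5 most abundant targets, 0.504%, became 1.23% when 10 targets were left out and was 0.235% to 0.773% with a library left out. Taking the mean over listed copies in place of the sum moved the mean share of tRNA-Asp-GUC to 15.8% and that of aspartate, glutamate and glycine tRNAs to 62.5%, against 30.7% and 76.2%. With a library left out these were 26.7% to 34.7% and 73.4% to 79.1%. The log2 ratio of summed tRNA TPM, -0.65, became -1.001 with TPM rescaled, -1.13 for nuclear tRNAs with TPM rescaled (added after seeing the data) and -0.43 without tRNA-Asp-GUC, and kept its sign in each. Under the other alternatives no value moved beyond the spread of both libraries. No paired analysis was possible because there is 1 group and the labels give no replicate numbers. Depth limits all names under 3 counts.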
